A study of Mus musculus with 6 samples.

Results

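The Ugt, Sult and Gst genes encode the 3 large enzyme families of phase II metabolism, and their transcripts were measured in mouse liver with and without an active form of the transcription factor IRF3. Members were all rows of the count table whose GENCODE M21 symbol began with Ugt1 to Ugt3 and the letter a or b, with Sult and a digit, or with Gst, a letter and a digit. This gave 64 of the 20894 rows: 21 Ugt, 21 Sult and 22 Gst genes. All animals were Irf3LSL-2D mice. The IRF3-2D group had received AAV8-TBG-Cre, an adeno-associated virus that expresses Cre from the hepatocyte-active TBG promoter, so that the stop cassette in front of the 2D form of IRF3 is removed in those cells. The Ctrl group carried the same allele and had received AAV8-TBG-GFP. Both groups were given ethanol at 3 g/kg by intraperitoneal injection and livers were taken 2 h later, with 3 libraries of poly-A RNA in each group. No library lacked ethanol, and none came from Cre without the allele, so active IRF3 and the presence of Cre instead of GFP cannot be told apart. The labels give neither age nor sex, and although the replicates are numbered, nothing says that they are different mice. The p-values below then set the difference between the groups only against the scatter of these samples, and part of that scatter may be technical.

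UDP-glucuronosyltransferases (Ugt) sit in the endoplasmic reticulum and transfer a sugar, mostly glucuronic acid, from a UDP-sugar to bilirubin, steroids, bile acids and drugs. Cytosolic sulfotransferases (Sult) transfer sulfate from the donor PAPS to phenols, catecholamines, oestrogens and bile acids, and glutathione S-transferases (Gst) join glutathione to electrophiles such as products of lipid peroxidation. In hepatocytes the conjugates are then pumped into bile or blood, and many of these genes are known targets of the xenobiotic receptors and of NRF2.

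The Ctrl libraries held 13940893 to 14830629 counts and the IRF3-2D libraries 12054096 to 13606973, and the members held 0.780 to 0.965% of the counts in Ctrl and 1.138 to 1.195% in IRF3-2D. Levels below are CPM, counts scaled to a common library size by edgeR's TMM factors, given as mean ± SD with n = 3 per group, and 3 counts in a library correspond to 0.194 to 0.252 CPM. The 20 most abundant genes took 33.5 to 35.7% of the counts in Ctrl and 22.5 to 24.5% in IRF3-2D, and the TMM factors were 0.822 to 0.879 and 1.12 to 1.23. Irf3, the gene that the allele carries, was 2.41-fold higher in IRF3-2D liver (log2 fold change 1.27, SE 0.16, adjusted p = 0.00152), with no overlap between the groups. In bulk liver, fewer cells of a type and less RNA per cell cannot be told apart.

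Transcripts of the 3 families did not move in one direction. Of the 64 members, 42 had enough counts to be tested. Among these, 8 were higher and 9 lower in IRF3-2D liver at an adjusted p under 0.05, which is 19.0% and 21.4% of those tested, while of all 10802 genes tested 13.2% were higher and 13.1% lower. In 10 tested members all 3 IRF3-2D libraries stood above all 3 Ctrl libraries (23.7% of all genes did so), and in 9 all 3 stood below (21.2% of all genes), so the share of members without overlap between the groups was near that of the whole table. By family, 1 Ugt gene rose and 5 fell of 17 tested, 3 Sult genes rose and 2 fell of 7, and 4 Gst genes rose and 2 fell of 18. The median log2 fold change was -0.29 for Ugt, 0.28 for Sult and -0.14 for Gst genes, beside 0.03 for all genes tested. These counts depend on the scaling. With library totals alone, without TMM, 5 Ugt genes were higher and 3 lower, 4 Sult genes higher and 1 lower, and 6 Gst genes higher and 1 lower, while the median of all genes moved to 0.49 and 4500 genes were higher and 571 lower. The 3 largest rises were those of Sult1c2, Sult1e1 and Gsta1, and the 3 largest falls those of Ugt3a1, Ugt1a10 and Ugt2b37.

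**Figure D1:**
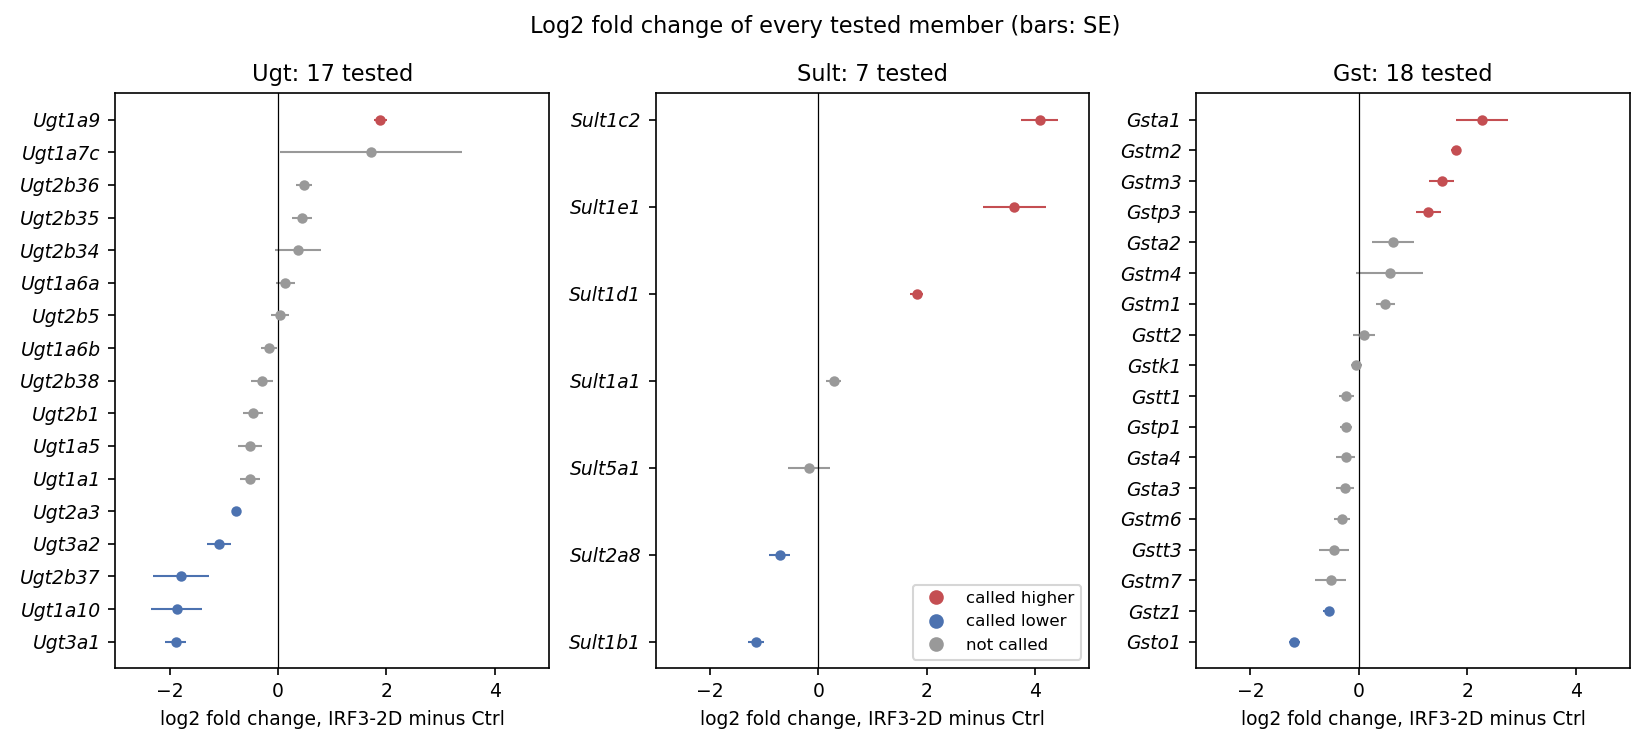
Log2 fold change (IRF3-2D minus Ctrl) of each tested member on the horizontal axis, 1 panel per family, with standard errors as bars and colours for members called higher, called lower or not called. The Sult family runs from -1.15 (Sult1b1) to 4.08 (Sult1c2), while the Ugt genes lie between -1.89 and 1.89 and the Gst genes between -1.19 and 2.27.

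The Ugt1a genes lie in 1 complex locus on chromosome 1 (plus strand, GENCODE M21 on GRCm38), where each gene has its own first exon and all share the last exons. Of the 9, Ugt1a9 (ENSMUSG00000090175, chromosome 1, 88070800 to 88218997), whose product conjugates phenols, was the member that rose. It had 1766, 2171 and 2421 counts in Ctrl and 10567, 9255 and 9176 in IRF3-2D liver. Every IRF3-2D library held more than 3 times the count of any Ctrl library. Its level went from 172 ± 24.3 to 637 ± 42.0 CPM, a log2 change of 1.89 (SE 0.13, adjusted p = 1.23e-04, 3.70-fold). Ugt1a10 fell at a much lower level, with 85, 74 and 56 counts in Ctrl and 21, 39 and 12 in IRF3-2D (log2 fold change -1.87, SE 0.48, adjusted p = 0.027). Its groups did not overlap, yet its call was lost when Ctrl replicate 1 or 2, or replicate 1 or 3 of IRF3-2D, was left out (adjusted p = 0.05 to 0.0868), and with library totals alone (adjusted p = 0.0531).

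Ugt1a1, the bilirubin-conjugating enzyme and the most abundant gene of the locus in Ctrl liver, had 5749, 8086 and 9779 counts in Ctrl and 7183, 5914 and 7201 in IRF3-2D. The groups overlapped on the CPM scale too, at 638 ± 152 and 446 ± 39.2 CPM, and the log2 fold change of -0.52 did not pass (SE 0.18, adjusted p = 0.0754), though it did with DESeq2 (adjusted p = 0.0102) and without Ctrl replicate 1 (adjusted p = 0.00774). Ugt1a6a and Ugt1a6b, whose products conjugate small planar phenols, had log2 fold changes of 0.13 and -0.16, and Ugt1a5 one of -0.51, none of which passed. Ugt1a7c had counts in 1 Ctrl and 2 IRF3-2D libraries, and Ugt1a2 and Ugt1a8 were not tested, with at most 11 counts in a library. Summed over the locus, the counts gave 1335 ± 264 CPM in Ctrl and 1559 ± 86.6 in IRF3-2D (log2 fold change 0.22, SE 0.15, adjusted p = 0.313). Within that sum the makeup differed. Ugt1a9 made up 13.6, 13.4 and 11.9% of the counts of the locus in Ctrl and 42.4, 43.0 and 37.4% in IRF3-2D liver, while Ugt1a1 went from 47.5% ± 2.88 to 28.6% ± 0.986. Neither share overlapped between the groups. Since the genes share their last exons, the split of the counts between them rests on the first exons and on the estimation of the authors' counting.

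**Figure D2:**
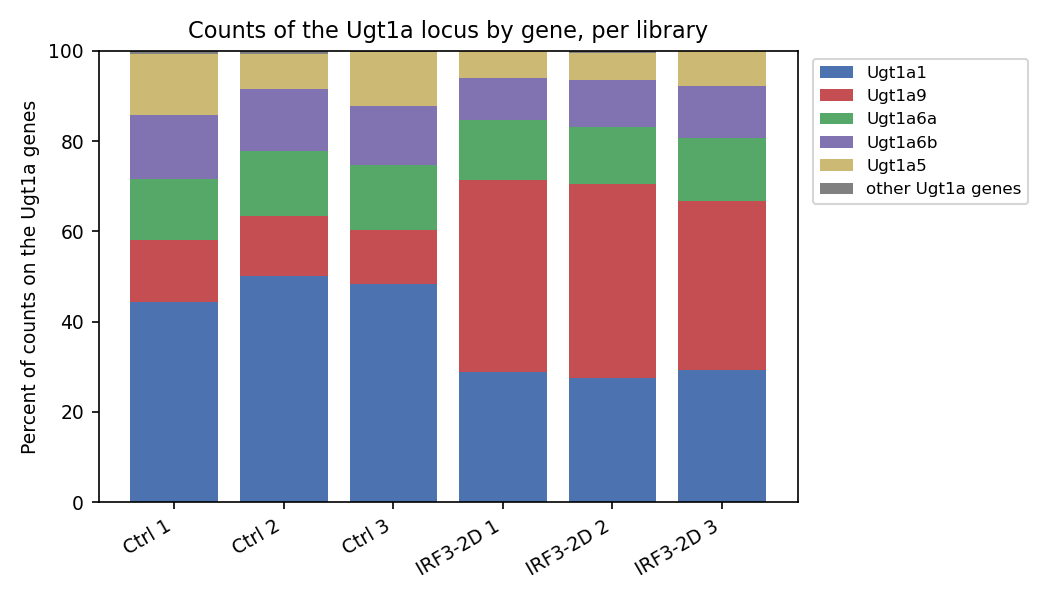
Percent of all counts on the Ugt1a genes (vertical axis, 0 to 100) held by each gene, 1 stacked bar per library, 3 Ctrl and 3 IRF3-2D. Ugt1a9 holds 11.9 to 13.6% of the counts in the Ctrl bars and 37.4 to 43.0% in the IRF3-2D bars, and Ugt1a1 narrows in the latter.

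Because the estimated counts of Ugt1a9 and its neighbour Ugt1a10 moved in opposite directions, the promoters of both are shown beside that of Ugt1a1. Each window is the 100 bases upstream of both the RefSeq and the GENCODE start (RefSeq, GRCm38.p6, plus strand), at chr1:88070679-88070778 for Ugt1a9, chr1:88055288-88055387 for Ugt1a10 and chr1:88211859-88211958 for Ugt1a1. Capitals mark the match to GTTAATNAT, the site of the hepatocyte nuclear factor HNF1, on either strand.
Ugt1a9: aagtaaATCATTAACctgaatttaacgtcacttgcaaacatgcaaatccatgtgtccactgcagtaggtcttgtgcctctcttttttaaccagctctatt
Ugt1a10: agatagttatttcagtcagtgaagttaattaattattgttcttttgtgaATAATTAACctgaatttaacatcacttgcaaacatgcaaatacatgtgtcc
Ugt1a1: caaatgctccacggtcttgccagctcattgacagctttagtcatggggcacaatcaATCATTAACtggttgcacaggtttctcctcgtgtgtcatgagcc
All 3 windows hold the motif, which occurs in 0.41% of windows of that length over 16002 genes. Those windows lie directly before the RefSeq start, while the printed window of Ugt1a10 leaves out 23 bases there. The windows of Ugt1a9 and Ugt1a10 share a run of 20 bases, whereas that of Ugt1a1 shares at most 10 with Ugt1a9. The motif stands in front of a member that rose, one that fell and one that did not pass. This motif was chosen after the sequences were seen, and a match is a description of letters, not of a bound site.

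Among the Ugt2 genes, which conjugate steroids, bile acids and many drugs, the 2 most abundant did not pass. Ugt2b5 stood at 863, 1351 and 1180 CPM in Ctrl and 1258, 1053 and 1177 in IRF3-2D (log2 fold change 0.04, SE 0.17, adjusted p = 0.886), with the groups interleaved. Ugt2b1 had 8954, 14084 and 12873 counts in Ctrl and 11829, 9160 and 11129 in IRF3-2D, at 974 ± 228 and 705 ± 75.3 CPM (log2 fold change -0.47, SE 0.18, adjusted p = 0.103), again with overlap. It passed with DESeq2 (adjusted p = 0.0205) and without Ctrl replicate 1 (adjusted p = 0.0166). Ugt2a3 (chromosome 5, 87324972 to 87337195, minus strand) did fall, from 393 ± 24.0 to 231 ± 8.94 CPM, with 4485, 4752 and 5284 counts in Ctrl and 3726, 3311 and 3466 in IRF3-2D. Its log2 fold change was -0.77 (SE 0.09, adjusted p = 0.00103) and the groups did not overlap. Ugt2b37, a rare transcript of 33, 51 and 17 counts in Ctrl and 12, 13 and 11 in IRF3-2D, fell by 1.79 on the log2 scale (SE 0.51, adjusted p = 0.0399). That call was lost when any library other than Ctrl replicate 3 was left out (adjusted p = 0.0812 to 0.142). Ugt2b36 was higher in every IRF3-2D library without passing (log2 fold change 0.47, adjusted p = 0.0538), and the 7 Ugt2b genes summed to 2762 ± 640 CPM in Ctrl and 2582 ± 211 in IRF3-2D (adjusted p = 0.715). Ugt2a1 and Ugt2a2 were listed at 0 in every library.

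Both Ugt3a genes fell. The enzymes of this branch use sugars other than glucuronic acid, and the genes are neighbours on chromosome 15 (plus strand), 20.5 kb apart with no other gene of the table's protein-coding annotation between them. Ugt3a1 (9276888 to 9315032) had 1164, 1282 and 1399 counts in Ctrl and 460, 291 and 531 in IRF3-2D. Its level went from 104 ± 7.83 to 28.1 ± 7.68 CPM, a log2 change of -1.89 (SE 0.20, adjusted p = 8.08e-04). Ugt3a2 (9335550 to 9370955) had 5155, 7234 and 7050 counts in Ctrl and 3492, 2872 and 4904 in IRF3-2D. It went from 527 ± 96.0 to 247 ± 66.1 CPM, a log2 change of -1.09 (SE 0.22, adjusted p = 0.0104). Neither gene's groups overlapped, and IRF3-2D replicate 2 was the lowest library for both.

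The Sult family had the fewest tested members and the largest rises. Of its 21 genes, 14 were not tested, with at most 19 counts in a library, and 9 of these were listed at 0 in every library, among them Sult2a1 and Sult3a1, which in mouse liver are known for female-predominant expression. Sult1c2 (ENSMUSG00000023122, chromosome 17, 53829637 to 53846339, minus strand), of the phenol sulfotransferase branch, had 197, 95 and 80 counts in Ctrl and 2956, 2585 and 2241 in IRF3-2D liver. The lowest IRF3-2D library thus held more than 10 times the highest Ctrl count. The level went from 10.1 ± 5.25 to 171 ± 22.4 CPM, a log2 change of 4.08 (SE 0.34, adjusted p = 3.29e-04, 16.9-fold). Its relative Sult1c1, also on chromosome 17, was listed at 0 in every library.

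Sult1b1, Sult1d1 and Sult1e1 are consecutive genes on the minus strand of chromosome 5, with gaps of 16.4 and 6.9 kb and no other protein-coding gene between them, and they did not move together. Sult1d1 (87554645 to 87569027), whose product sulfates catecholamines, had 1874, 2196 and 2653 counts in Ctrl and 9820, 9606 and 9651 in IRF3-2D. It went from 182 ± 27.3 to 640 ± 9.83 CPM (log2 fold change 1.82, SE 0.12, adjusted p = 1.28e-04, 3.52-fold), with a wide gap between the groups. Sult1e1 (87575969 to 87591594), the oestrogen sulfotransferase, had 4, 2 and 8 counts in Ctrl and 43, 68 and 103 in IRF3-2D. Its groups did not overlap, and the log2 fold change of 3.62 (SE 0.59, adjusted p = 0.00467) rests on those few Ctrl counts. Sult1b1 (87513339 to 87538195), which sulfates thyroid hormones, went the other way, with 282, 221 and 298 counts in Ctrl and 148, 129 and 167 in IRF3-2D (log2 fold change -1.15, SE 0.15, adjusted p = 0.00218).

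The promoters of these 3 neighbours are shown because 2 of the genes rose and 1 fell. The windows are again 100 bases from RefSeq (GRCm38.p6), here on the minus strand and printed 5′ to 3′, at chr5:87569028-87569127 for Sult1d1, chr5:87591612-87591711 for Sult1e1 and chr5:87538196-87538295 for Sult1b1. Capitals mark GTTAATNAT and the dioxin response element core GCGTG on either strand.
Sult1d1: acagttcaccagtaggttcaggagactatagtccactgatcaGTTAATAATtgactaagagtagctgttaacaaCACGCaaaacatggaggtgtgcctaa
Sult1e1: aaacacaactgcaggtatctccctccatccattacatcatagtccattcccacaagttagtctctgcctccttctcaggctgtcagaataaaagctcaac
Sult1b1: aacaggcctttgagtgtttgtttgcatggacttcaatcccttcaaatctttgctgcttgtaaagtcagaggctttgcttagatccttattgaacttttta
The window of Sult1d1 holds both motifs and the other 2 windows hold neither, and no 2 of the windows share a run longer than 8 bases. Of all genes, 0.41% hold GTTAATNAT and 22.3% hold GCGTG in windows of this length directly before the RefSeq start. The printed window of Sult1d1 leaves out 21 bases there.

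Among the abundant sulfotransferases, Sult2a8, which acts on bile acids, had 7719, 11109 and 10822 counts in Ctrl and 7077, 6007 and 9186 in IRF3-2D. Scaled, the groups did not overlap (804 ± 156 and 489 ± 101 CPM, log2 fold change -0.72, SE 0.19, adjusted p = 0.0333). The call was lost when Ctrl replicate 2 or 3, or replicate 1 or 2 of IRF3-2D, was left out (adjusted p = 0.0944 to 0.112) and with library totals alone (log2 fold change -0.27, adjusted p = 0.216). Sult1a1, the phenol sulfotransferase, stood at 353, 250 and 319 CPM in Ctrl and 389, 393 and 339 in IRF3-2D, with overlap (log2 fold change 0.28, SE 0.14, adjusted p = 0.189). Sult5a1 had 18 to 36 counts and did not pass (log2 fold change -0.18). The 6 Sult1 genes summed to 521 ± 52.6 CPM in Ctrl and 1199 ± 54.1 in IRF3-2D (log2 fold change 1.201, SE 0.10, adjusted p = 3.45e-04). Sult1a1 held 58.8% ± 5.42 of that sum in Ctrl and 31.1% ± 1.14 in IRF3-2D, while Sult1d1 held 35.1% ± 6.28 and 53.4% ± 2.04 and Sult1c2 held 1.93% ± 0.929 and 14.2% ± 1.32.

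Per kilobase of median annotated transcript, the scale on which genes can be compared, Sult2a8 had the highest mean of the family in both groups, at 786 CPM per kb in Ctrl and 478 in IRF3-2D. In Ctrl it led in each library, whereas in IRF3-2D replicate 2 it stood at 398, under Sult1d1 at 438. Behind it the order of the means changed. Sult1a1 came next in Ctrl at 239 CPM per kb, ahead of Sult1d1 at 122, whereas in IRF3-2D liver Sult1d1 stood at 430 and Sult1a1 at 290. Sult1c2 stood at 5.48 CPM per kb in Ctrl, beside Sult1b1 at 8.31, and at 92.7 in IRF3-2D, where Sult1b1 stood at 3.75.

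**Figure D3:**
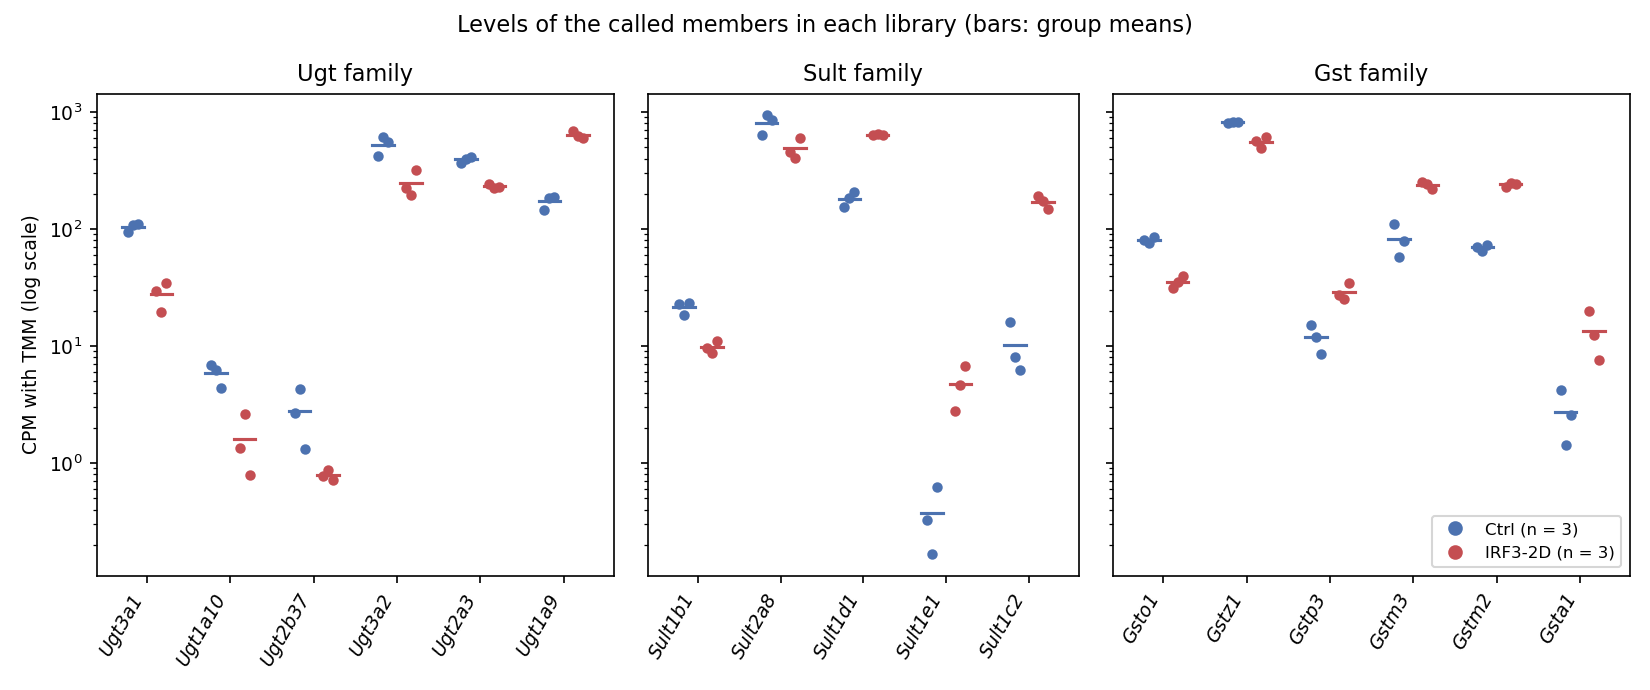
Level of each member called higher or lower, in CPM with TMM on a log scale, 1 panel per family, with 1 point per library (3 Ctrl, 3 IRF3-2D) and bars at the group means. No called member has overlapping groups, and the widest gaps are those of Sult1c2 (10.1 to 171 CPM) and Sult1e1 (0.373 to 4.71 CPM).

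In the Gst family the mu class held the clearest rises. Gstm2 (ENSMUSG00000040562, chromosome 3, 107981702 to 107986453, minus strand) had 862, 775 and 935 counts in Ctrl and 3560, 3630 and 3734 in IRF3-2D. It went from 69.6 ± 4.01 to 240 ± 8.71 CPM, a log2 change of 1.79 (SE 0.09, adjusted p = 3.76e-05, 3.45-fold), the smallest adjusted p of all members. Gstm3 (107963696 to 107969283), its neighbour at 12.4 kb, had 1363, 687 and 1013 counts in Ctrl and 3918, 3595 and 3345 in IRF3-2D (log2 fold change 1.53, SE 0.23, adjusted p = 0.00319). In both genes every IRF3-2D library lay far above every Ctrl library. Gstm1, at 25.8 kb on the other side of Gstm2, stood at 25.7, 15.9 and 19.9 CPM in Ctrl and 30.98, 27.6 and 27.7 in IRF3-2D. Its groups did not overlap, but the log2 fold change of 0.49 did not pass (SE 0.18, adjusted p = 0.0821). Gstm6, next to Gstm3 at 19.9 kb, and Gstm7 had log2 fold changes of -0.31 and -0.52 that did not pass, and Gstm4 one of 0.57 (SE 0.63). Of the 31-base words of their transcripts, 37.7% in Gstm3 and 28.8% in Gstm1 also occur in other genes. The counts of both thus depend on how shared reads were split. Summing the class removes this only in part, since 24.7% of the words of Gstm3 and 10.5% of those of Gstm2 occur outside it. The sum over the 7 Gstm genes stood at 285 ± 40.5 CPM in the controls and 600 ± 5.52 in IRF3-2D liver (log2 fold change 1.07, SE 0.12, adjusted p = 9.11e-04). Gstm6 had the largest mean share of that sum in Ctrl, 34.8% ± 3.69 (in Ctrl replicate 1 Gstm3 held more), and 13.2% ± 2.46 in IRF3-2D. There Gstm2 held 40.1% ± 1.19 and Gstm3 39.8% ± 3.28. These are shares of counts, which also depend on transcript length. Per kilobase of median annotated transcript, Gstm2 stood at 304 and Gstm3 at 182 CPM per kb in IRF3-2D. In Ctrl replicate 1, Gstm6 stood at 109.6 and Gstm3 at 84.9 CPM per kb.

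The promoters of Gstm2 and Gstm3 are shown with that of Gstm1, which lies in the same row of genes and did not pass. The windows of 100 bases (RefSeq, GRCm38.p6, minus strand) are chr3:107986454-107986553 for Gstm2, chr3:107969284-107969383 for Gstm3 and chr3:108017974-108018073 for Gstm1. Capitals mark GCGTG and GAAANNGAA, a pair of half-sites of interferon regulatory factors, on either strand.
Gstm2: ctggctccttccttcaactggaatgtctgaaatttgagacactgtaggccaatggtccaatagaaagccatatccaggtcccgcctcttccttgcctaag
Gstm3: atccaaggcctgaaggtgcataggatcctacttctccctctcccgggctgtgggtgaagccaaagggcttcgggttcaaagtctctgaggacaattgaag
Gstm1: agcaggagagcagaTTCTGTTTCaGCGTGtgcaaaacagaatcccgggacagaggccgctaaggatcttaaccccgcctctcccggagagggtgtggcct
The 2 genes that rose hold none of the motifs searched in this window, while Gstm1 holds both of those marked. To lie upstream of the GENCODE start too, the window of Gstm2 leaves out 33 bases before the RefSeq start. That of Gstm3 leaves out 109 and that of Gstm1 0, so the windows lie at unlike distances from it. In the 250 bases directly before the RefSeq start, Gstm2 and Gstm3 hold none of the motifs either. Over the 250 bases upstream, 56 members were matched. GAAANNGAA occurred in 2 of 19 Ugt, 2 of 17 Sult and 3 of 20 Gst promoters, beside 8.1% of all promoters, and GCGTG in 2, 3 and 5 of them, beside 37.9%. The members with GAAANNGAA were Ugt3a1, Sult2a8 and Gstz1, which were called lower, Ugt2b1, Gstm1 and Gstt1, which did not pass, and the untested Sult3a1. None was called higher, and a part of the motif in these changes was not tested. TGACNNNGC, the antioxidant response element to which NRF2 binds, occurred in none of the Ugt or Sult and in 3 of the Gst promoters, beside 12.3% of all. GTTAATNAT, chosen after the sequences were seen, occurred in 3 Ugt, 5 Sult and 0 Gst promoters, beside 0.82% of all. The 3 Ugt promoters are those printed above, so the comparison with all genes is no test. Of the 5 Sult promoters, 4 belong to the untested Sult2a3, Sult2a4, Sult2a5 and Sult2a6.

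**Figure D4:**
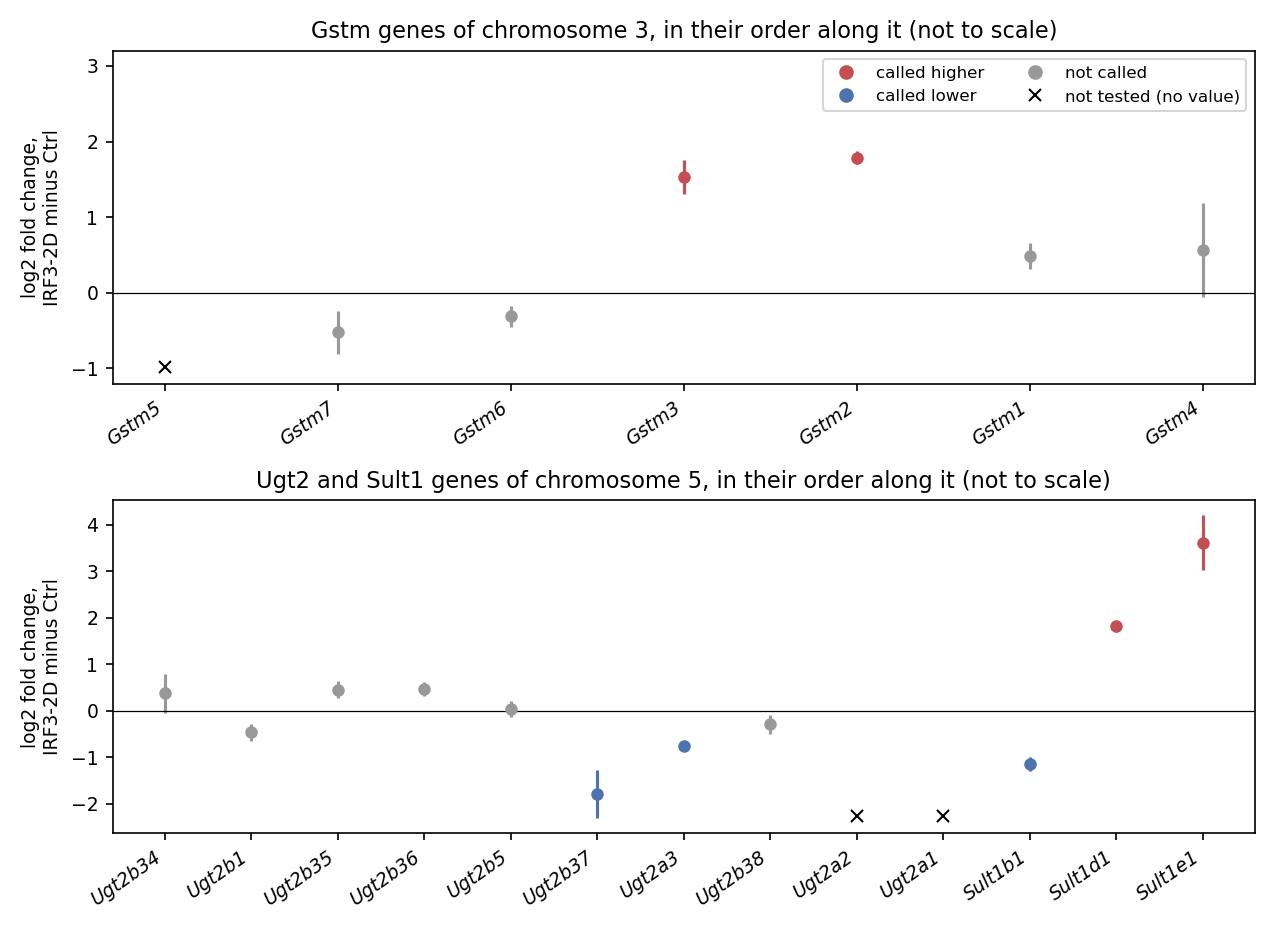
Log2 fold change (IRF3-2D minus Ctrl) with SE bars on the vertical axis, with crosses for members not tested. The upper panel holds the Gstm genes of chromosome 3 and the lower panel the Ugt2 and Sult1 genes of chromosome 5. Members stand in their order along the chromosome, not to scale. Called and uncalled genes stand side by side, as Gstm2 (1.79) and Gstm1 (0.49). Called genes of opposite sign do too, as Sult1b1 (-1.15) and Sult1d1 (1.82).

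The other Gst classes held 2 rises and 2 falls. Gstp3, of the pi class, had 186, 142 and 110 counts in Ctrl and 418, 373 and 529 in IRF3-2D (log2 fold change 1.28, SE 0.23, adjusted p = 0.00657), with no overlap. Gstp1, the most abundant member of the family, stood at 1690, 2111 and 2085 CPM in Ctrl and 1736, 1494 and 1768 in IRF3-2D, with overlap (log2 fold change -0.24, SE 0.12, adjusted p = 0.192). Gsta1, of the alpha class, had 52, 17 and 33 counts in Ctrl and 308, 184 and 116 in IRF3-2D (log2 fold change 2.27, SE 0.48, adjusted p = 0.0141). Its value is uncertain: 92.9% of the words of its transcripts occur in other genes, and without Ctrl replicate 3 the adjusted p was 0.052. Gsta3, the most abundant alpha gene, stood at 283, 363 and 426 CPM in Ctrl and 274, 283 and 346 in IRF3-2D, with overlap. Neither Gsta3 nor Gsta4, which detoxifies the lipid peroxidation product 4-hydroxynonenal, passed (adjusted p = 0.318 and 0.355).

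Gsto1 (chromosome 19), which reduces dehydroascorbate and arsenic species, fell, with 993, 910 and 1096 counts in Ctrl and 489, 521 and 606 in IRF3-2D. That is 81.1 ± 4.56 against 35.5 ± 4.05 CPM, a log2 change of -1.19 (SE 0.10, adjusted p = 3.87e-04), with no overlap. Gstz1 (chromosome 12), the maleylacetoacetate isomerase of tyrosine breakdown, went from 818 ± 8.55 to 558 ± 59.3 CPM (log2 fold change -0.55, SE 0.10, adjusted p = 0.00691). Its counts of 9915, 9711 and 10581 in Ctrl and 8748, 7301 and 9341 in IRF3-2D lie close, and with library totals alone the log2 fold change was -0.10 (adjusted p = 0.353). Gstk1, of mitochondria and peroxisomes, Gstt1, Gstt2 and Gstt3 did not pass (log2 fold changes -0.05, -0.23, 0.09 and -0.46), and the direction of Gstk1 turned with library totals alone (0.40, adjusted p = 0.0139). Of the 4 Gst genes not tested, none had more than 14 counts in a library.

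Summed over each family, the Ugt genes gave 5120 ± 959 CPM in Ctrl and 4648 ± 330 in IRF3-2D and the Gst genes 4006 ± 316 and 3640 ± 248, with overlap in both. The Sult genes gave 1179, 1399 and 1407 CPM in Ctrl and 1688, 1642 and 1740 in IRF3-2D, without overlap. In sums by subfamily, reads shared within a subfamily cannot move between rows. Among these, Sult1 and Gstm were higher and Gsto, Gstz, Sult2, Ugt2a and Ugt3a lower. Of the lower sums, Gstz, Ugt2a, Gsto and Sult2 held Gstz1, Ugt2a3, Gsto1 and Sult2a8 and few or no other counts. Their log2 fold changes (-0.55, -0.77, -1.19 and -0.72) repeated those of the single genes and are no check on shared reads. The Sult2 sum failed to pass in the settings named above for Sult2a8 (adjusted p = 0.094 to 0.214). The sums of Ugt1a, Ugt2b, Gsta, Gstk, Gstp, Gstt and Sult5 did not pass.

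The counts for the lists that follow stand beside 13.2% of all tested genes higher and 13.1% lower. Of 10 tested genes of UDP-sugar and PAPS supply, 1 rose and 1 fell (median log2 fold change -0.14). Papss2, which makes PAPS, rose by 0.48 on the log2 scale (adjusted p = 0.0355), from 303 ± 51.8 to 424 ± 6.27 CPM, and Slc35b2, which carries PAPS into the Golgi, fell by 0.52 (adjusted p = 0.00799). Ugdh, the enzyme that makes UDP-glucuronic acid, was listed at 0 in all 3 Ctrl libraries and at 13, 5 and 2 counts in IRF3-2D. Hepatocytes need this enzyme, and an exact 0 in estimated counts can be a failed estimate, so no comparison is made for it. Of 12 tested genes of glutathione supply and breakdown, 2 rose and 4 fell (median -0.25). Gclm, the modifier subunit of the first enzyme of glutathione synthesis, rose by 0.80 (adjusted p = 0.00398). Chac1 and Chac2, which degrade glutathione, fell by 1.95 and 0.69 (adjusted p = 0.00147 and 0.00565).

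Outside the 3 families, a list of other conjugating enzymes, which also holds acyl-CoA synthetases and epoxide hydrolases, went lower or did not pass. Of 18 genes tested, 9 fell and 0 rose (median -0.52). Inmt, an N-methyltransferase of indoles, had 7168, 4912 and 8378 counts in Ctrl and 364, 402 and 494 in IRF3-2D, a fall of 4.31 on the log2 scale (SE 0.22, adjusted p = 4.41e-05). Acsm3, an acyl-CoA synthetase of medium-chain acids, fell by 1.48 (adjusted p = 2.34e-04) and Ephx2, soluble epoxide hydrolase, by 1.31 (adjusted p = 0.00246). Of 5 deconjugating enzymes tested 2 fell and 0 rose (median -0.99), the arylsulfatase Arsa by 1.88 and the carboxylesterase Ces1d by 1.44. Of 7 export pumps 4 fell and 1 rose (median -0.66). Abcb11, the bile salt pump, fell by 1.36 (adjusted p = 8.05e-05) and Abcc2, the canalicular pump of glucuronides and glutathione conjugates, by 0.84 (adjusted p = 0.00338). Abcc4, a pump of the basolateral membrane, was the pump called higher, listed at 0 in all Ctrl libraries and at 60, 62 and 71 counts in IRF3-2D. As for Ugdh, these zeros can be failed estimates, and no fold is given.

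Of 20 tested regulators of these enzyme genes, 3 rose and 6 fell (median -0.21). Nfe2l2, which encodes NRF2, rose by 0.68 (adjusted p = 0.00175), while Ppara, the receptor of fatty acids, fell by 1.39 (adjusted p = 1.69e-04) and Stat5b, the growth hormone effector of sex-biased liver genes, fell by 1.03 (adjusted p = 8.05e-04). The other 2 rises, named after their values were seen, were those of Ahr, the dioxin receptor (0.93, adjusted p = 0.00247), and Cebpa (1.05, adjusted p = 0.0139). Of 12 male-biased liver genes tested 1 rose and 3 fell, and of 4 female-biased ones 1 rose and 2 fell. The female-biased Cyp2a4, which rose, had 264, 0 and 11 counts in Ctrl and 4384, 6358 and 2692 in IRF3-2D. Of the 2 that fell, Cyp17a1 had 276, 104 and 132 counts in Ctrl and 81, 53 and 42 in IRF3-2D. Acot3 had 15, 18 and 25 in Ctrl and 0, 0 and 2 in IRF3-2D. As for Ugdh, the zeros of Cyp2a4 and Acot3 can be failed estimates, and no fold is given. Of the Y-linked genes, Eif2s3y (77.8 ± 8.89 and 93.7 ± 8.48 CPM) and Uty had counts in all 6 libraries, while Kdm5d was listed at 0 in Ctrl replicate 2 and IRF3-2D replicate 3.

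The marker lists of liver cell types stand beside the same 13.2% higher and 13.1% lower of all genes. Of 11 hepatocyte markers 3 rose and 5 fell (median -0.36), with summed levels of 159710 to 212950 CPM in Ctrl and 94488 to 105930 in IRF3-2D. Alb, the most abundant of them, fell by 1.22 on the log2 scale (adjusted p = 0.00138), while Ttr, Hpx and Apoc3 rose by 0.84, 0.68 and 0.44. Of 11 Kupffer cell and macrophage markers 3 rose and 0 fell (464 to 525 and 535 to 763 CPM), of 10 endothelial markers 0 rose and 5 fell (530 to 554 and 349 to 469 CPM), and of 8 stellate cell markers 0 rose and 1 fell (254 to 314 and 217 to 280 CPM). None of the 6 cholangiocyte, 3 lymphocyte and 5 erythroid markers tested passed, and 1 of 5 neutrophil and monocyte markers rose (Ly6c2). These lists summed to 3.36 to 6.05 CPM in Ctrl and 5.11 to 6.10 in IRF3-2D for lymphocytes, 747 to 1473 and 649 to 1265 for erythroid cells, and 5.05 to 10.4 and 8.98 to 30.4 for neutrophils and monocytes. The stellate marker Pdgfrb and the T cell marker Cd3g were listed at 0 in every library. Cholangiocyte markers summed to 33.0 to 52.1 CPM in Ctrl and 32.1 to 41.1 in IRF3-2D. Of 10 pericentral genes tested 1 rose and 4 fell (5729 to 11084 and 3535 to 4659 CPM), and of 12 periportal genes 1 rose and 6 fell (132690 to 180670 and 66195 to 76369 CPM). Alb and Cps1 stand in both the hepatocyte and the periportal list, and Alb alone held 118680 CPM in Ctrl and 50833 in IRF3-2D, so the sums of these lists largely show the same gene. The part of these shifts in the values of the conjugating enzymes was not tested.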

How the data were processed

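RNA of mouse liver was sequenced from 6 poly-A libraries, 3 per group. The authors deposited estimated counts per gene, not normalized, 1 column per library. The submitters' processing notes name Salmon 1.2.1, GRCm38 and mm10 without a role; annotation and strand setting were not given in the sources used here. The deposited values were whole numbers and were used as they stand. Identifiers were matched to GENCODE M21 symbols (20817 of 20894 rows). All genes passing filterByExpr (10802) were fitted in R 4.3.3 with edgeR 4.0.16 (quasi-likelihood F-test, TMM scaling, group as the only term), with Benjamini-Hochberg adjustment over all of them and a threshold of 0.05. Adjusted p-values are edgeR's unless another tool is named. Each standard error was derived from the fold change and the F statistic. The test was tested on simulated data.

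The members, gene lists and markers were chosen with earlier results of these data known. In each family every called member was named, with counts or CPM per library for large changes and for the 3 most abundant tested members, and in each list up to 3 called genes with the smallest adjusted p. Cyp2a4, Cyp17a1, Acot3, the cell type and Y-linked markers and members named without a call were chosen after their values were seen. Alternatives were DESeq2 1.42.0, limma-voom (limma 3.58.1), RLE, upper-quartile scaling, library totals alone, no filter, a mean count of at least 50, a replicate block, each library left out, and summed subfamilies. Depth was 12054096 to 14830629 counts, and no replicates agreed within sampling noise (chi-square per degree of freedom 18.9 to 109.7). Promoter letters are RefSeq's (GRCm38.p6) and both strands were searched. Shared words of 31 bases come from GENCODE M21 transcripts.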

Additional observations from a re-analysis of the deposited data

How the results depend on the processing

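Of the 17 called members, 12 kept direction and call under every alternative in which they were tested apart from the sum over their subfamily, and Ugt1a10, Ugt2b37, Sult2a8, Gsta1 and Gstz1 did not. Besides the libraries named above, library totals alone ended the calls of Ugt1a10, Ugt2b37 (-1.33, adjusted p = 0.0669), Sult2a8 and Gstz1, and Ugt2b37 also lost its call with limma-voom (-1.60, adjusted p = 0.0825), without a filter (-1.78, adjusted p = 0.0569) and with the replicate block (-1.66, adjusted p = 0.0794). With DESeq2, 8 Ugt genes were lower, Ugt1a1, Ugt1a5 and Ugt2b1 among them. With library totals alone the higher and lower counts were 5 and 3 for Ugt (median log2 fold change 0.171), 4 and 1 for Sult (0.733), 6 and 1 for Gst (0.313), 4500 and 571 for all genes, and 4 and 3 for subfamily sums, and Gstk1 and the Gstk sum turned to 0.404. Without a filter the Sult median was 1.077 and 3 Sult genes were lower, beside 2 in the main fit. No uncalled member tested in the main fit gained a call in that setting, so the added one was untested there. With a mean count of at least 50, 2 Ugt genes were higher and 3 lower, where Ugt1a10 and Ugt2b37 were not tested. Under that filter 2 Sult genes were higher, and Sult1e1, with a mean count of 38, was not tested. In place of single genes, the subfamily sums gave 0.224 for Ugt1a10, 1.201 for Sult1b1, -0.183 for Gsta1, 1.072 for Gstm6 and Gstm7, and -0.219 for Gstp3, against their own direction. The causes were not tested.

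Leaving out 1 library at a time gave 1 to 2 Ugt genes higher and 3 to 5 lower (median -0.496 to -0.137), 3 Sult genes higher and 1 to 2 lower (0.149 to 0.392), 4 to 5 Gst genes higher and 2 to 3 lower (-0.144 to -0.054), 851 to 1312 genes higher and 920 to 1363 lower in all, and 2 subfamily sums higher and 4 to 5 lower. Same-numbered libraries of the groups had deviations correlated at 0.096, -0.034 and 0.045, so the numbers were not taken as pairs. Calls were gained by Ugt1a1, Ugt2b1 and Gstm1 without Ctrl replicate 1, Ugt1a5 and Ugt2b35 without Ctrl replicate 2, Ugt2b36 and Gsta2 without Ctrl replicate 3, Gstm4 without IRF3-2D replicate 1 and Gstm6 without IRF3-2D replicate 3. With a replicate block, 1 Ugt gene was higher and 5 lower (Ugt2b37 lost its call and Ugt1a5 gained one, -0.49, adjusted p = 0.0396), 3 Sult genes higher and 2 lower, 4 Gst genes higher and 2 lower, and 1038 genes higher and 1128 lower in all. The 22 untested members had too few counts for the filter of the main fit, and 12 of them were listed at 0. Among the others, Sult2a7 had 9, 8 and 19 counts in Ctrl and 2, 1 and 1 in IRF3-2D.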
